A study of Mus musculus with 3 samples.

Results

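The cells described here were selected by 6 oligodendrocyte transcripts from 3 mouse brain tumours, and there were 1018 of them among 9286 cells. A cell was selected when Mog, Mag, Mobp, Mal, Ermn and Opalin together reached 10 unique molecular identifiers (UMIs, each one captured RNA molecule) per 10000, and when the myeloid genes C1qa, C1qb, C1qc, Tyrobp, Fcer1g and Ctss together stayed under 15 per 10000. They are called marker-positive cells below. They were set against 4520 comparison cells of the same tumours, which had under 3 UMIs per 10000 of the first sum and under 15 of the second. All cells had at least 500 detected genes and at most 20% mitochondrial UMIs.

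The 3 tumours, numbered 1, 2 and 4 after the labels, form a single group with no control tissue. The mice were heterozygous for the tm4(ACTB-tdTomato,-EGFP)Luo allele of Gt(ROSA)26Sor, a reporter that changes from tdTomato to EGFP, on a B6.129(Cg) background. All tumours carried H3f3aK27M, PdgfraD842V and Trp53R270H, introduced with MADR constructs by electroporation of the brain at postnatal day 1 to 2. The animals were 150, 106 and 149 days old for tumours 1, 2 and 4. GFP-positive tumour cells were sorted by flow cytometry and profiled with a droplet-based 3′ kit, 1 library per tumour, so tumour, age and library cannot be told apart. The sources used here do not give the promoter that drives the constructs. The libraries held 47120617, 15231673 and 53551127 UMIs in tumours 1, 2 and 4, and the filters left 3361, 1548 and 4377 cells. Libraries shared between 6 and 20 cell barcodes in pairs, and 0 cells were marker-positive under a shared barcode in both libraries of a pair.

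Oligodendrocytes wrap axons in myelin, a stack of membrane that is rich in cholesterol and galactolipids and is held together by a small number of very abundant proteins, among them myelin basic protein, Mbp. They arise from oligodendrocyte progenitor cells (OPCs), which carry the receptor Pdgfra and the proteoglycan Cspg4, pass through a committed stage with Bcas1, Enpp6 and Gpr17, and stop dividing before they make myelin. Human gliomas with histone H3 K27M are known to hold many OPC-like cells and fewer cells with oligodendrocyte transcripts. Mog and Mag are adhesion proteins of the myelin surface, Mobp is a cytoplasmic protein of compact myelin, Mal is a proteolipid of lipid rafts, Ermn binds the cytoskeleton and Opalin is a transmembrane glycoprotein of oligodendrocytes.

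In mm10, the build named in the submitters' processing notes, GENCODE places Opalin on the minus strand at chr19:41061710-41077113, Mog on the minus strand at chr17:37010743-37023398 and Mobp on the plus strand at chr9:120149707-120181484. The 250 bases before the RefSeq transcript start of these 3 markers are shown because Opalin behaved differently from the other markers in these tumours. Capitals mark matches on either strand to the core of the SOX motif (ACAAAG, reverse complement CTTTGT) or to the MYRF motif (CTGGCAC or CTGGTAC, reverse complements GTGCCAG and GTACCAG), which belong to the factors Sox10 and Myrf that control myelin genes. The sequences are RefSeq's for GRCm38.p6, each 5′ to 3′ on the strand of the gene.
Opalin, chr19:41077114-41077363, minus strand: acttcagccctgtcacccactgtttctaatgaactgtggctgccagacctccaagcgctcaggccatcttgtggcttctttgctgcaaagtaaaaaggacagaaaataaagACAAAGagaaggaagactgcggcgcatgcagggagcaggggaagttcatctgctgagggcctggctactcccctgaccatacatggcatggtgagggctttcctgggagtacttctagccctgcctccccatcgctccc
Mobp, chr9:120149492-120149741, plus strand: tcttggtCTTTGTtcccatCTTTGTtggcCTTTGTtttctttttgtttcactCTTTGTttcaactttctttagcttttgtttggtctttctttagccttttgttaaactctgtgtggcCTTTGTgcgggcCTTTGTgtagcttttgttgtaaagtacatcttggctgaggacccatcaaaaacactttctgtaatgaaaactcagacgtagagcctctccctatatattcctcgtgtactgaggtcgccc
Mog, chr17:37023399-37023648, minus strand: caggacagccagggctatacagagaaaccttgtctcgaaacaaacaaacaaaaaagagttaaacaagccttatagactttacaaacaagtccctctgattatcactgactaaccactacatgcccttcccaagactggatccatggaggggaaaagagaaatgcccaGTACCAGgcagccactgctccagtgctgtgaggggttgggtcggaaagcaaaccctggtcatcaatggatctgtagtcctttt
The SOX core occurred 1 time before Opalin, 6 times before Mobp and 0 times before Mog, and the MYRF motif 1 time before Mog and 0 times before the other two, with no overlap between matches. Among 32851 such windows, 16.5% held the SOX core and 5.93% the MYRF motif, so matches of either kind are common and are a description of these letters, not of binding.

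Marker-positive cells made up very different shares of the 3 tumours. There were 32 of 3361 cells in tumour 1 (0.952%, exact 95% binomial interval 0.652% to 1.34%), 521 of 1548 in tumour 2 (33.7%, 31.3% to 36.1%) and 465 of 4377 in tumour 4 (10.6%, 9.73% to 11.6%). The mean share was 15.1% ± 16.8 (SD, n = 3 tumours). These intervals do not overlap, but they cover counting error only, and with 1 library per tumour no test between tumours was possible. With the rule applied to cells thinned at random to 2000 UMIs, the shares were 6.87%, 33.85% and 23.3% in tumours 1, 2 and 4. The shares of tumours 1 and 4 thus depended on the depth at which the rule was applied. The marker sum itself had a median of 11.9 UMIs per 10000 in tumour 1, 48.3 in tumour 2 and 13.1 in tumour 4, so the cells of tumours 1 and 4 lay mostly just above the limit and those of tumour 2 well above it. Cells just inside the limit (10 to 11 per 10000) numbered 10, 20 and 91 in tumours 1, 2 and 4, and cells just outside it (9 to 10) numbered 11, 24 and 108. In tumour 2 the cells just inside had 4826 CPM (UMIs of the gene per 1000000 UMIs of the cell set) of Mbp and 27.1 CPM of Opalin, and those just outside 7662 CPM of Mbp and 33.8 CPM of Opalin. In tumour 4 the Mbp level was 2354 CPM just inside and 2080 CPM just outside, and Opalin was at 754 and 733 CPM. In tumour 1 Mbp was at 129 CPM just inside and 1638 CPM just outside, and Opalin at 1036 and 810 CPM.

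Opalin alone carried much of the selection in tumours 1 and 4. It gave 58.3% of the marker UMIs of marker-positive cells in tumour 1 and 51.3% in tumour 4, against 3.73% in tumour 2. In tumour 1, 23 of the 32 cells held Opalin and none of the other 5 markers, and in tumour 4 this was so for 118 of 465 cells. In tumour 2 it was so for 0 of 521 cells. At least 4 of the 6 markers were detected in 5 cells of tumour 1 (15.6%), in 415 of tumour 2 (79.7%) and in 113 of tumour 4 (24.3%). The limit of 10 per 10000 was reached without Opalin by 5 cells of tumour 1 (15.6%), 512 of tumour 2 (98.3%) and 93 of tumour 4 (20%). The other 27, 9 and 372 cells needed Opalin to reach the limit and are called Opalin-dependent cells below. The data thus go against the name mature oligodendrocyte-like for most cells of tumours 1 and 4. Reaching the limit without Opalin does not by itself show maturity either. In tumour 2 the 136 cells with the lowest marker sums had the most committed-stage transcripts, with 14 such genes summing to 6482 CPM, against 2294 CPM in comparison cells of that tumour.

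**Figure D1:**
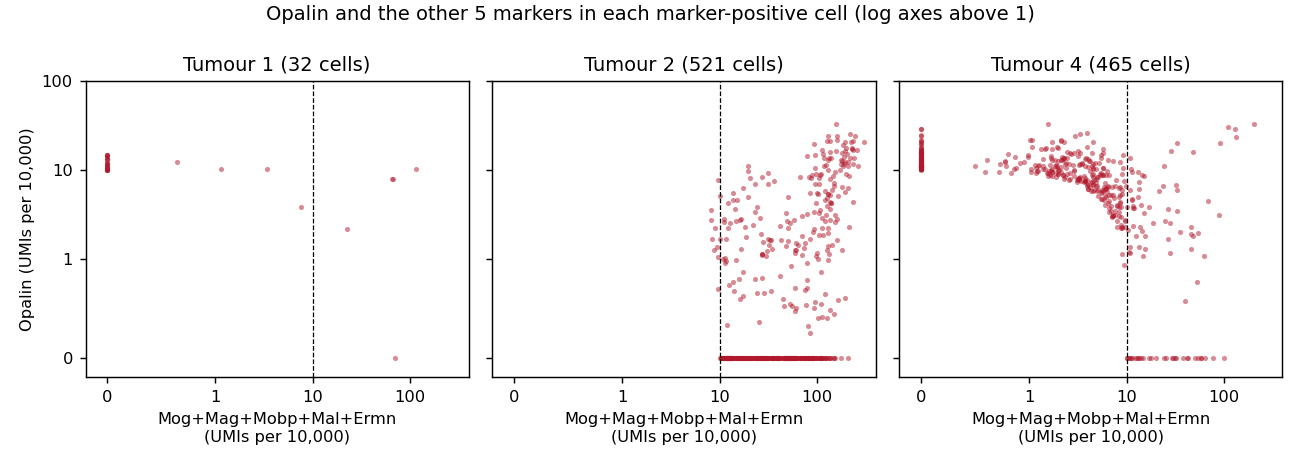
Each point is a marker-positive cell; the x axis gives the sum of Mog, Mag, Mobp, Mal and Ermn and the y axis Opalin, both in UMIs per 10000 on axes that are logarithmic above 1. The dashed line marks 10 on the x axis: 512 of 521 cells of tumour 2 lie at or right of it, against 5 of 32 in tumour 1 and 93 of 465 in tumour 4.

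The levels of the 6 markers, which chose the cells and are given as a description, differed in the same way. Mog was at 109, 1540 and 140 CPM in marker-positive cells of tumours 1, 2 and 4, against 0.694, 28.8 and 2.82 CPM in comparison cells. Mobp was at 320, 2614 and 311 CPM in marker-positive cells, against 4.58, 84.1 and 19.0 CPM in comparison cells. Opalin ran the other way between tumours, at 1070, 301 and 940 CPM in marker-positive cells and 103, 9.35 and 110 CPM in comparison cells of tumours 1, 2 and 4. Opalin was thus higher in the marker-positive cells of tumours 1 and 4 than in those of tumour 2, where Mog and Mobp were highest. Opalin was also present outside the marker-positive cells of tumours 1 and 4: 64.6% of comparison cells had an Opalin UMI in tumour 1 and 63.4% in tumour 4, against 6.78% in tumour 2. Cells at or over the myeloid limit, which should lack it, had one in 57.8%, 48.9% and 12.4% of cells in tumours 1, 4 and 2, at median depths of 13611, 9455 and 7232 UMIs against 11908, 9638 and 6740 in comparison cells. The myeloid cells include 56 of 542 in tumour 2 and 5 of 88 in tumour 4 that also reached the limit of the 6 markers. Without them the shares with an Opalin UMI were 9.88% in tumour 2 and 47.0% in tumour 4. At this background the Opalin UMIs of comparison cells cannot be told apart from free RNA in the droplets. The Opalin level in marker-positive cells, which were chosen in part by Opalin, was above that in myeloid cells of the same tumour throughout. It was 1070 against 78.8 CPM in tumour 1, 301 against 33.3 CPM in tumour 2 and 940 against 112 CPM in tumour 4. Without the cells that reached both limits, myeloid cells had 14.2 CPM of Opalin in tumour 2 and 94.9 CPM in tumour 4.

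**Figure D2:**
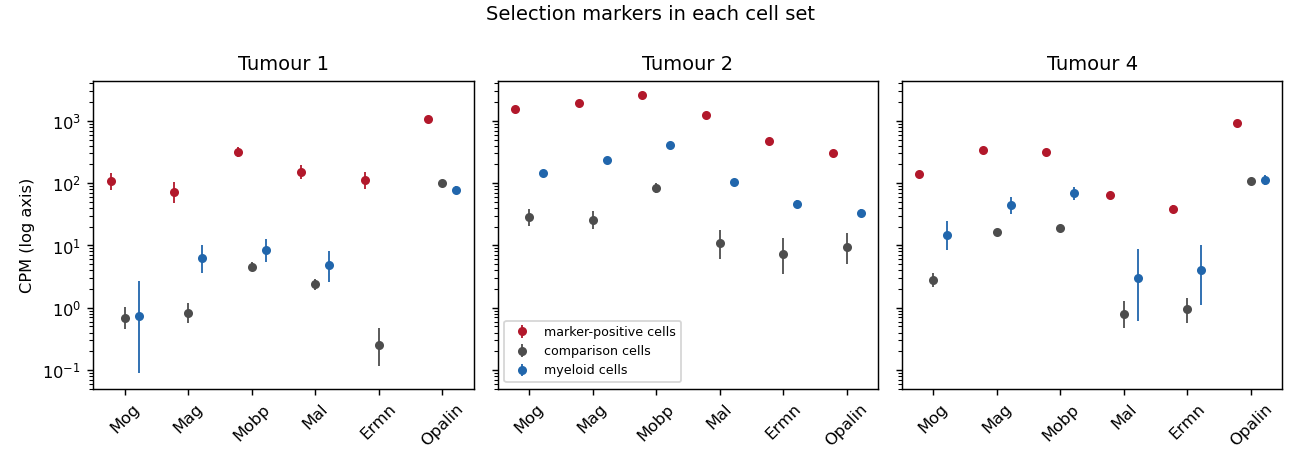
CPM on a log axis of the 6 selection markers in summed counts of marker-positive, comparison and myeloid cells of each tumour, with exact 95% Poisson intervals (counting error only); no point is drawn where a set had 0 UMIs. In tumour 2 Opalin is the lowest of the 6 markers in marker-positive cells, at 301 CPM, while it is the highest in tumours 1 and 4, at 1070 and 940 CPM.

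Splitting the cells by whether they needed Opalin to reach the limit, a split made after these values were seen and given with no test, separated myelin levels in tumours 1 and 4. In tumour 4, Mbp was at 9222 CPM in the 93 cells that reached the limit without Opalin, against 2466 CPM in the 372 Opalin-dependent cells. Apod, a lipocalin of mature oligodendrocytes, was at 2447 against 137 CPM. The summed structural myelin genes were at 29300 against 8206 CPM, and the summed OPC genes at 1043 against 1489 CPM. In tumour 1 the 5 cells that reached the limit without Opalin had 9377 CPM of Mbp, against 1231 CPM in the 27 Opalin-dependent cells, and 1580 against 0 CPM of Apod. Structural myelin genes summed to 39320 against 4148 CPM there. The Opalin-dependent cells had myelin levels above those of comparison cells, whose structural myelin genes summed to 1722 CPM in tumour 1 and 3615 CPM in tumour 4, but far under those of tumour 2, where marker-positive cells reached 60960 CPM and comparison cells 6184 CPM.

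To ask which other genes went with the markers, UMI counts were summed per tumour and cell set and fitted with edgeR's quasi-likelihood test with the tumour as a block, leaving out the 12 genes of the rule. Both sets were chosen by expression in the same cells, so genes that accompany myelin markers were bound to be favoured, and their calls describe which genes accompany the markers and are no independent evidence of what the cells are. Of 12362 genes, 155 (1.25%) passed an adjusted p of 0.05 (Benjamini-Hochberg), 137 higher (1.11%) and 18 lower (0.146%) in marker-positive cells, and 151 had the same sign in all 3 tumours. At an unadjusted p under 0.05 there were 2136 genes (17.3%), which is the share to set beside the unadjusted counts of the gene lists below. These calls rest on the block and on tumour 1: without the tumour term edgeR called 0 genes (1053 at an unadjusted p under 0.05), without tumour 1 it called 0 (1509 unadjusted), without tumour 2 it called 1122 and without tumour 4 it called 791. DESeq2 with the same design called 520 of the 12362 genes, 386 higher and 134 lower. Those are the counts to set beside the DESeq2 counts of the gene lists below. With cells chosen by the 5 markers other than Opalin, an alternative added after the data were seen, 2272 of 11678 genes (19.5%) were called, 1063 higher (9.10%) and 1209 lower (10.4%), and 147 of the 155 were among them. The marker-positive cells of tumour 1 gave 374781 UMIs in all, so single genes there rest on few UMIs, and how many of them came from the 5 cells with several markers is given below.

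Genes of the myelin sheath led the higher calls. Mbp was at 2276, 13080 and 3858 CPM in marker-positive cells of tumours 1, 2 and 4, against 156, 2052 and 892 CPM in comparison cells, a log2 fold change of 2.91 ± 0.34 (SE; edgeR adjusted p = 0.0163). The groups did not overlap, and 451 of the 853 Mbp UMIs in tumour 1 came from the 5 cells. Hapln2, a link protein of the matrix at nodes of Ranvier, was at 40.0, 354 and 40.0 CPM in marker-positive cells and 0.139, 12.2 and 1.93 CPM in comparison cells (5.30 ± 0.60, adjusted p = 0.0148). Tmem125, a membrane protein of the myelin list, was at 37.4, 280 and 25.4 CPM in marker-positive cells and 0.194, 11.5 and 0.894 CPM in comparison cells (5.37 ± 0.52, adjusted p = 0.00941). The groups did not overlap for either gene, and all 15 UMIs of Hapln2 and 13 of the 14 of Tmem125 in tumour 1 came from the 5 cells.

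Of the 24 structural myelin genes, 13 rose in marker-positive cells and 0 fell, against 1.11% and 0.146% of all genes tested. Their median log2 fold change was 2.38, beside -0.05 for all genes tested. The junction protein Cldn11 was at 865, 5422 and 1407 CPM in marker-positive cells and 284, 308 and 441 CPM in comparison cells, and did not pass the test (2.46 ± 0.53, adjusted p = 0.0894), nor did the connexin Gjb1 (2.82 ± 0.58, adjusted p = 0.0837). The smallest change was that of the tetraspanin Cd9, at 835, 734 and 1317 CPM in marker-positive cells and 556, 762 and 865 CPM in comparison cells (0.41 ± 0.19, adjusted p = 0.33), with groups that overlap. With cells chosen by the 5 markers other than Opalin, 23 of the 24 genes rose.

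**Figure D3:**
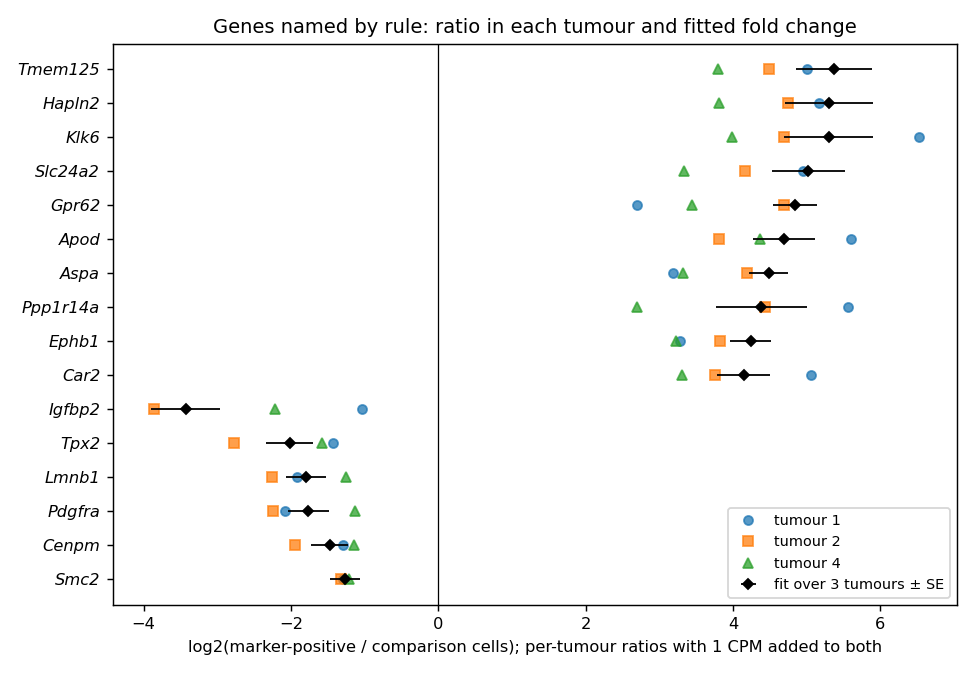
Log2 ratio of marker-positive over comparison cells for 16 of the genes named by the rule: symbols give the ratio in each tumour with 1 CPM added to both levels, and black diamonds the edgeR fold change over 3 tumours ± SE. The 10 higher genes lie right of 0 in all 3 tumours and the 6 lower genes left of it, as the rule that named them required.

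Enzymes that build and supply myelin lipid rose in part. Of 15 genes for galactolipids and fatty acids, 4 rose and 0 fell: Ugt8a, which makes galactosylceramide, Fa2h, which hydroxylates its fatty acid, the elongase Elovl7, and Aspa, which frees acetate from N-acetylaspartate. Ugt8a was at 66.7, 900 and 157 CPM in marker-positive cells of tumours 1, 2 and 4 and 15.2, 72.6 and 44.7 CPM in comparison cells (2.56 ± 0.38, adjusted p = 0.0364). Aspa was at 13.3, 174 and 15.5 CPM in marker-positive cells and 0.583, 8.63 and 0.659 CPM in comparison cells (4.48 ± 0.26, adjusted p = 0.00311). Of the 15, 9 rose with the 5 markers. None of the 22 cholesterol synthesis genes passed the test with edgeR (6 higher at an unadjusted p under 0.05, beside 17.3% of all genes in either direction), and their median log2 fold change was 0.39. DESeq2 called 2 of the 22 higher, beside 386 of all 12362 genes. With the 5 markers 8 of 21 tested rose and 0 fell, and the median was 0.81, so the absence of calls holds for the 6-marker cells only. Their summed level was 470, 1999 and 892 CPM in marker-positive cells and 527, 1408 and 719 CPM in comparison cells, so it was the higher of the pair in tumours 2 and 4 and the lower in tumour 1. Hsd17b7, a reductase of that pathway, came nearest to the threshold (1.35 ± 0.24, adjusted p = 0.0557), and Insig1, which holds back that pathway, had a log2 fold change of -0.43 ± 0.26 (adjusted p = 0.431).

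Many genes of late oligodendrocytes rose. Of 18 tested, 11 rose and 0 fell, with a median log2 fold change of 2.54, and all 18 rose with the 5 markers. Apod was at 203, 5906 and 613 CPM in marker-positive cells, against 3.22, 420 and 28.7 CPM in comparison cells (4.69 ± 0.42, adjusted p = 0.00756), and all 76 of its UMIs in tumour 1 came from the 5 cells. Klk6, a secreted serine protease, was at 216, 1542 and 116 CPM in marker-positive cells and 1.36, 59.0 and 6.40 CPM in comparison cells (5.30 ± 0.61, adjusted p = 0.0148). The iron carrier Trf was at 704, 4320 and 635 CPM in marker-positive cells and 24.1, 249 and 76.1 CPM in comparison cells (4.04 ± 0.36, adjusted p = 0.00756). In each of these 3 genes marker-positive cells were higher in every tumour, though comparison cells of tumour 2 had more Apod than marker-positive cells of tumour 1. Car2, a carbonic anhydrase, changed by 4.14 ± 0.36, the nuclear cytokine Il33 by 2.60 ± 0.23, and Ptgds, the prostaglandin D synthase, by 2.78 ± 0.40. Of the remaining genes named by the rule, the exchanger Slc24a2 changed by 5.02 ± 0.50, the orphan receptor Gpr62 by 4.84 ± 0.30, the phosphatase inhibitor Ppp1r14a by 4.39 ± 0.61 and the ephrin receptor Ephb1 by 4.24 ± 0.28. Between 92.9% and 100% of the tumour 1 UMIs of the 10 higher genes given here that the rule named came from the 5 cells, with the exception of Ephb1, where it was 40.0% of 5 UMIs.

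None of the 13 tested lineage transcription factors passed the test with edgeR (6 higher at an unadjusted p under 0.05). DESeq2 called 3 of the 13 higher, Myrf, Nkx6-2 and St18, beside 386 of all 12362 genes. Myrf, which switches on myelin genes, was at 37.4, 212 and 123 CPM in marker-positive cells and 20.9, 38.1 and 49.5 CPM in comparison cells (1.63 ± 0.33, adjusted p = 0.0796). Nkx6-2, a homeobox factor of myelinating cells, was at 104, 476 and 352 CPM in marker-positive cells and 5.02, 22.3 and 164 CPM in comparison cells (3.24 ± 0.70, adjusted p = 0.0921). The pan-lineage factors Sox10 and Olig2 had log2 fold changes of 0.43 ± 0.20 and -0.35 ± 0.20, neither past the test. With the 5 markers, 5 factors were called higher and 1 lower, among them Myrf and Nkx6-2.

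Committed-stage and progenitor genes did not all move one way. Of 14 genes of committed and newly formed oligodendrocytes, 3 rose: Enpp6, a choline phosphodiesterase, at 21.4, 253 and 43.6 CPM in marker-positive cells and 3.08, 65.4 and 6.21 CPM in comparison cells (adjusted p = 0.0118), the tubulin deacetylase Sirt2 (1.67 ± 0.17) and the tetraspanin Cd82 (2.37 ± 0.27). Of the 14, 7 rose and 0 fell with the 5 markers. Gpr17, a receptor of committed progenitors, was at 26.7, 126 and 88.8 CPM in marker-positive cells and 21.4, 217 and 52.2 CPM in comparison cells, with a different sign in tumour 2 from the other tumours. Of 17 OPC genes, 1 fell: Pdgfra, at 29.4, 12.4 and 40.0 CPM in marker-positive cells and 128, 62.6 and 88.7 CPM in comparison cells (-1.77 ± 0.28, adjusted p = 0.0425). The groups did not overlap, and reads of the mouse gene and of the engineered PdgfraD842V cannot be told apart in these counts. The phosphatase Ptprz1 was at 246, 80.3 and 387 CPM in marker-positive cells and 507, 705 and 605 CPM in comparison cells (-1.56 ± 0.47, adjusted p = 0.185). The median over the 17 genes was -1.01, and 13 of them fell with the 5 markers. Cspg4 had a log2 fold change of -0.69 ± 0.33 (adjusted p = 0.332). The 13 tested inhibitors of differentiation in the Notch, Wnt and BMP pathways had a median of -0.89 and no call with edgeR (5 lower at an unadjusted p under 0.05). DESeq2 called 2 of the 13 lower, Hes1 and Hes5, both Notch targets, beside 134 of all 12362 genes. With the 5 markers 9 fell.

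Transcripts of dividing cells were scarcer in marker-positive cells. In cells thinned at random to 2000 UMIs, at least 3 UMIs of 26 cycling genes were found in 15.6%, 4.03% and 12.7% of marker-positive cells of tumours 1, 2 and 4, against 39.5%, 16.4% and 33.8% of comparison cells. The means were 10.8% ± 6.03 and 29.9% ± 12.1 (SD, n = 3 tumours each), the share was lower in marker-positive cells of all 3 tumours, and the smallest two-sided exact p that 3 pairs allow is 0.25. Without thinning the shares were 78.1%, 32.6% and 43.9% in marker-positive cells and 86.3%, 33.3% and 67.9% in comparison cells. Myeloid cells had 30.4%, 4.61% and 12.5%, so the shares of marker-positive cells lay under those of myeloid cells or within their interval. Whether the cycling UMIs of either set came from dividing cells, doublets or free RNA was not tested. No cycling of marker-positive cells is read from these shares. Without the cells that reached both limits, myeloid cells had 3.70% in tumour 2 (exact 95% interval 2.21% to 5.79%) and 13.3% in tumour 4 (6.81% to 22.5%). Of the 26 cycling genes, 2 fell, Tpx2, a spindle assembly factor (-2.02 ± 0.32, adjusted p = 0.0412), and the cyclin Ccnb2 (-1.64 ± 0.28, adjusted p = 0.0494), and the list's median was -1.30; with the 5 markers 17 of the 26 fell. Smc2, a condensin subunit, was at 21.4, 26.0 and 17.6 CPM in marker-positive cells and 53.8, 66.2 and 42.0 CPM in comparison cells (-1.27 ± 0.20, adjusted p = 0.0418). The lamin Lmnb1 changed by -1.79 ± 0.27 and the centromere protein Cenpm by -1.48 ± 0.25. When comparison cells with at least 3 cycling UMIs were left out, the lower calls numbered 5. The log2 fold changes became positive for Tpx2 (0.79), Ccnb2 (0.79), Smc2 (0.53) and Cenpm (0.072), none past the test. Marker-positive cells with as many cycling UMIs were kept, and Tpx2 and Ccnb2 are in the cycling list. A shift upward of such genes was thus built into this setting and is not read as a result. The largest drop among the genes named by the rule was that of Igfbp2, which binds insulin-like growth factors, at 8.01, 9.13 and 0.838 CPM in marker-positive cells and 17.5, 147 and 7.53 CPM in comparison cells (-3.43 ± 0.47, adjusted p = 0.027). Its level in marker-positive cells of tumour 1 rested on 3 UMIs, and the 147 CPM on the 177 comparison cells of tumour 2, so the size of the drop is uncertain.

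**Figure D4:**
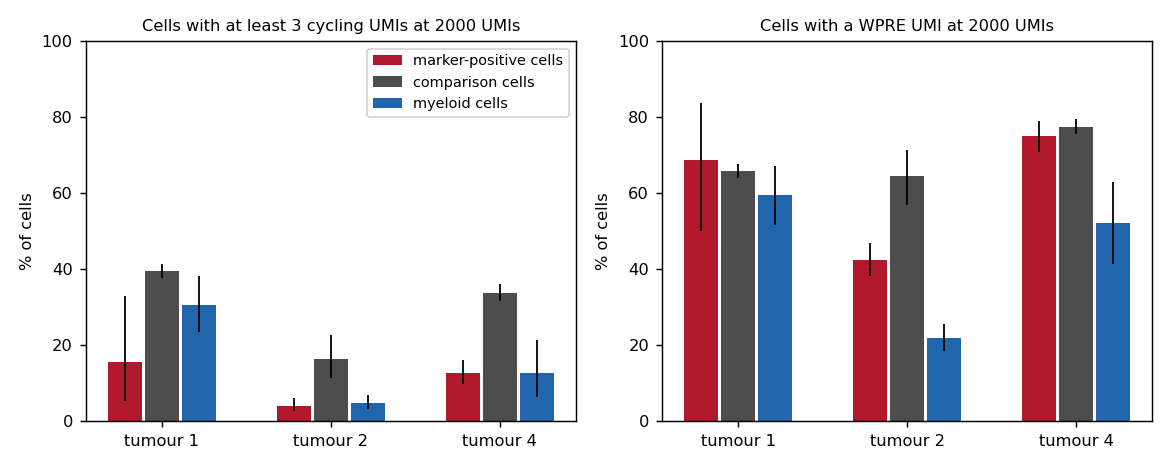
Shares of cells, at 2000 UMIs per cell, with at least 3 UMIs of cycling genes (left) and with a UMI of WPRE (right) in marker-positive, comparison and myeloid cells of each tumour; bars start at 0 and lines are exact 95% binomial intervals. Marker-positive cells stand under comparison cells in the left panel in all 3 tumours; in the right panel the gap is widest in tumour 2 (42.4% against 64.4%).

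The vector element WPRE, which is listed as a gene in the tables, was found at 2000 UMIs in 68.8%, 42.4% and 75.1% of marker-positive cells of tumours 1, 2 and 4, against 65.9%, 64.4% and 77.6% of comparison cells and 59.6%, 21.8% and 52.3% of myeloid cells. Unthinned shares were 93.8%, 77.9% and 97.8% in marker-positive cells and 98.2%, 87.0% and 98.7% in comparison cells. In tumours 2 and 4 the interval of marker-positive cells (38.1% to 46.8% and 70.9% to 78.9%) lay above that of myeloid cells (18.4% to 25.5% and 41.4% to 63.0%), and in tumour 1 they overlapped. Without the cells that reached both limits, the shares of myeloid cells were 19.1% in tumour 2 and 50.6% in tumour 4. WPRE stood at 531, 274 and 797 CPM in marker-positive cells and 603, 688 and 802 CPM in comparison cells (-0.47 ± 0.27, adjusted p = 0.408). H3f3a was at 1406, 661 and 1283 CPM in marker-positive cells and 1474, 1460 and 1318 CPM in comparison cells (-0.38 ± 0.25, adjusted p = 0.461), and Trp53 and the cell cycle inhibitor Cdkn2a had log2 fold changes of -0.18 ± 0.18 and 0.24 ± 0.26, none past the test. Of the 5 genes of this list Pdgfra alone was called with the 6 markers. H3f3a, Pdgfra and WPRE, 3 of the 5, fell with the 5 markers.

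Some genes known from oligodendrocytes in inflamed or injured tissue rose. Of 15 such genes, 3 rose and 0 fell, with a median of 0.69: Serpina3n, a serine protease inhibitor, at 197, 282 and 450 CPM in marker-positive cells and 64.6, 84.8 and 205 CPM in comparison cells (1.51 ± 0.20, adjusted p = 0.0237), the interferon-induced Ifit3 (1.52 ± 0.25, adjusted p = 0.0447) and the annexin Anxa2 (1.18 ± 0.20, adjusted p = 0.047). In tumour 1 the 5 cells with several markers held 1 of 117 Ifit3 UMIs and 14 of 74 Serpina3n UMIs. They held 48094 of the 374781 UMIs of all marker-positive cells there, so Ifit3 was scarce in them and Serpina3n was not. With the 5 markers Serpina3n, C4b and Steap3 were called higher and Cd74 lower, while Ifit3 and Anxa2 were not called. Complement component C4b had a log2 fold change of 1.18 ± 0.25 (adjusted p = 0.0841). No gene was called among 18 p53 targets (median -0.31), 10 genes of the integrated stress response (0.11) or 15 immediate early genes (-0.42), with DESeq2 as with edgeR; at an unadjusted p under 0.05 edgeR had 4, 2 and 5 of them, beside 17.3% of all genes. Each list had calls with the 5 markers, where 9.1% of all genes tested were called higher and 10.4% lower. Of the 18 p53 targets 1 rose and 4 fell, among them the cell cycle inhibitor Cdkn1a. Of the 10 stress response genes 1 rose and 1 fell, near the shares of all genes. Of the 15 immediate early genes 1 rose and 6 fell, among them the transcription factors Fos and Egr1. The 77 tested ribosomal protein genes had no call with either tool (15 lower at an unadjusted p under 0.05 with edgeR, beside 17.3% of all genes in either direction) and a median of -0.45; summed, they took 220500, 89820 and 187500 CPM in marker-positive cells and 252800, 181800 and 222900 CPM in comparison cells. With the 5 markers 72 of the 77 were called lower.

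Of the markers of other cell types, 1 was called with edgeR, the ependymal marker Rarres2. The rule's myeloid genes, held under a limit in both sets, summed to 131, 588 and 36.3 CPM in marker-positive cells and 140, 613 and 25.7 CPM in comparison cells. The 8 microglia markers outside the rule summed to 29.4, 139 and 22.4 CPM in marker-positive cells, 44.3, 120 and 21.2 CPM in comparison cells and 1741, 4026 and 2741 CPM in myeloid cells, and 0 of 5 tested were called (0 at an unadjusted p under 0.05). The counts called were 0 of 3 macrophage, 0 of 3 endothelial, 0 of 2 mural, 0 of 5 neuron, 0 of 4 neuroblast and 0 of 1 Schwann cell markers, with no T or NK cell marker testable, and DESeq2 called none of them either. At an unadjusted p under 0.05 edgeR had 1 macrophage, 2 neuron, 1 neuroblast and 1 Schwann cell marker. With the 5 markers 4 of 5 neuron, 2 of 3 neuroblast, 2 of 2 mural and 1 of 1 Schwann cell markers fell. Of 3 macrophage markers Lgals3 rose and Cd74 fell, while 0 of 2 endothelial, 0 of 4 microglia and 0 of 1 ependymal markers were called. The 10 astrocyte markers had no call and a median of -1.45 with edgeR (7 lower at an unadjusted p under 0.05). They had 3 lower calls with DESeq2, beside 134 of all 12362 genes, and 9 of 9 lower with the 5 markers. The glutamate transporter Slc1a3 was at 101, 71.6 and 26.4 CPM in marker-positive cells and 114, 598 and 50.3 CPM in comparison cells. Of 2 tested ependymal markers Rarres2, a secreted chemoattractant, fell, at 0, 2.36 and 0.419 CPM in marker-positive cells and 2.00, 78.4 and 3.39 CPM in comparison cells (adjusted p = 0.0148); in tumour 1 both were under the limit that 3 UMIs set in marker-positive cells, 8.01 CPM. The 10 astrocyte markers summed to 304, 269 and 321 CPM in marker-positive cells and 352, 1396 and 435 CPM in comparison cells, and the 4 ependymal markers to 2.67, 12.6 and 2.51 CPM and to 2.89, 122 and 9.22 CPM. The comparison cells of tumour 2, which numbered 177, thus held the most of both, and the part of those cells in the differences was not tested.

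Within tumour 2 the level of other oligodendrocyte genes differed with the marker sum. The 521 cells were cut at marker sums of 20, 50 and 100 per 10000 into groups of 136, 130, 116 and 139 cells, a description since the cut uses the rule's own sum. Cnp, a phosphodiesterase of the myelin cytoplasm, was at 2466, 2898, 3812 and 6495 CPM from the lowest to the highest group, whereas Mbp was at 9327, 13300, 14990 and 13930 CPM and so was highest in the third. OPC genes summed to 1540, 1023, 453 and 216 CPM, and Bmp4, a ligand of newly committed cells, was at 231, 83.1, 8.34 and 5.55 CPM. The committed-stage genes summed to 6482, 4666, 3374 and 3554 CPM, with Bcas1 at 965, 690, 401 and 248 CPM and Enpp6 at 398, 355, 211 and 131 CPM. The cells nearest to the limit thus had the highest levels of these genes. Apod peaked in the second group (2915, 10560, 7817 and 3656 CPM) and Klk6 in the third (540, 1792, 2430 and 1383 CPM). Ptgds and Opalin were highest in the last group, at 705, 936, 1087 and 4216 CPM for Ptgds and 59.0, 110, 82.7 and 724 CPM for Opalin. WPRE was lower in each further group, at 435, 371, 258 and 128 CPM, and the share of cells with cycling UMIs was 9.56%, 4.62%, 0.862% and 0.719%. The median cell depth was 8083, 8402, 12970 and 15480 UMIs, so depth moved with the marker sum, and its part in these levels was not tested. In tumour 4 the same groups held 385, 61, 14 and 5 cells; Cnp was at 992, 1529, 3632 and 8226 CPM and Apod at 235, 1678, 5805 and 221 CPM, the last 2 groups resting on under 20 cells each.

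**Figure D5:**
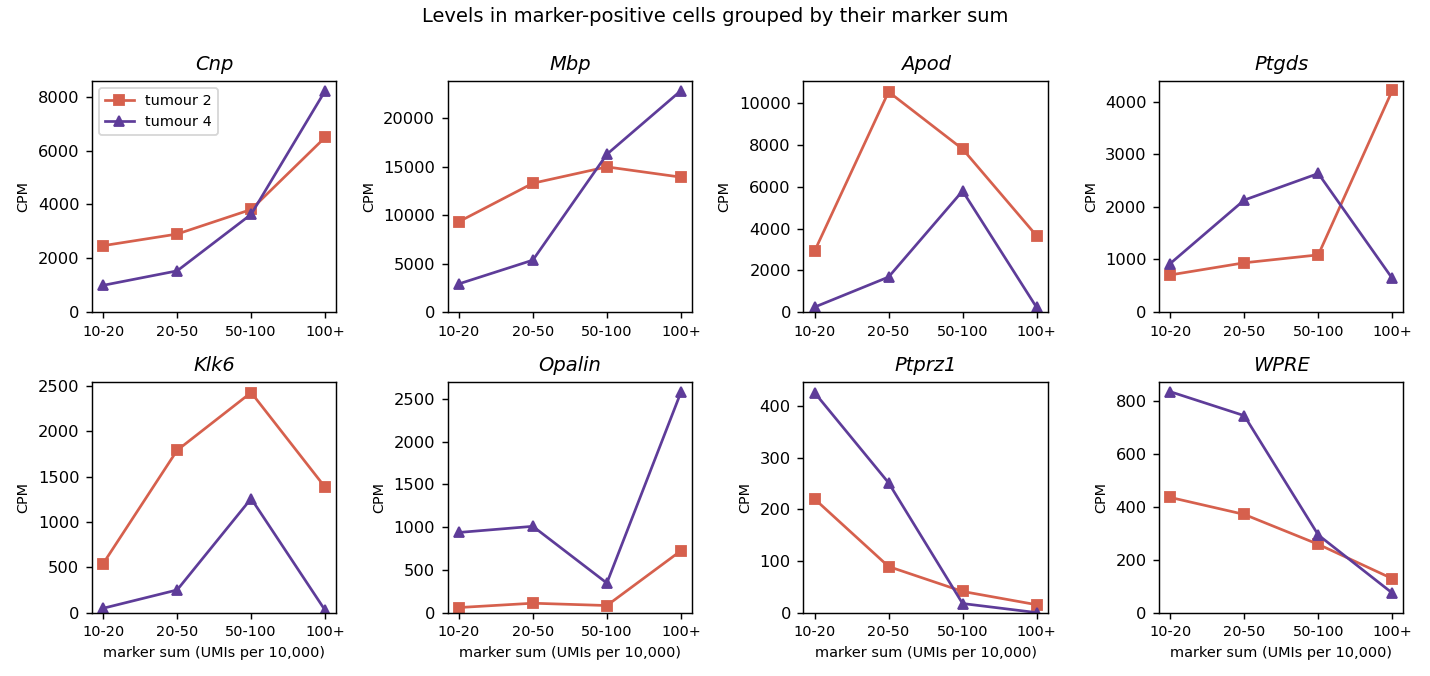
Levels in CPM of 8 transcripts in marker-positive cells of tumours 2 and 4, grouped by marker sum (x axis, UMIs per 10000). In tumour 2 Cnp reaches 6495 CPM in the last group while Apod peaks at 10560 CPM in the second; the last 2 groups of tumour 4 hold 14 and 5 cells.

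A small share of genes differed by over 8-fold between the marker-positive cells of tumours 2 and 4. In tumour 2 only 9 of the 521 cells were Opalin-dependent, against 372 of 465 in tumour 4, and the part of this in the differences was not tested. Of 1941 genes with at least 100 CPM in either, 75 (3.86%) differed by over 8-fold with 1 CPM added to both levels, 44 (2.27%) higher in tumour 2 and 31 (1.60%) higher in tumour 4, and 24 of the 75 differed past that limit the same way in comparison cells. No test was possible with 1 library each. Of the 75, 13 stood in the oligodendrocyte lists, all higher in tumour 2. Among these, 4 were markers of the rule, which chose the cells, and the rest were myelin, myelin lipid or late oligodendrocyte genes. The committed-stage, transcription factor and OPC lists, of 14, 14 and 17 genes, had 0, beside 3.86% of all genes counted. That share would leave few or none in lists of this size, so the 0 is not read as a result about these genes. The marker sum itself was higher in tumour 2, and list genes at 100 CPM were not counted, so this is a description. Klk6 was at 1542 CPM in tumour 2, against 116 CPM in tumour 4. Outside these lists, in tumour 2 the milk proteins Csn2 and Csn3 reached 170 and 235 CPM, against 0.838 and 4.40 CPM in tumour 4, and the matrix protein Mgp reached 555 against 4.61 CPM. In comparison cells Mgp was at 26.6 CPM in tumour 2 and 0.188 CPM in tumour 4. Csn2 was at 19.4 and 0.235 CPM there and Csn3 at 23.7 and 1.27 CPM, each past 8-fold with 1 CPM added. Along the marker groups of tumour 2 Csn2 was highest in the lower ones, at 337, 411, 50.7 and 7.86 CPM. The imprinted RNAs Meg3 and H19 were at 25.02 and 32.9 CPM in tumour 2, against 750 and 548 CPM in tumour 4, and the elongation factor Eef1a2 was at 6.61 CPM in tumour 2 against 313 CPM in tumour 4. In comparison cells Meg3 was at 178 CPM in tumour 2 and 831 CPM in tumour 4, and Eef1a2 at 16.5 CPM in tumour 2 and 325 CPM in tumour 4. Both were thus higher in tumour 4 outside the marker-positive cells too, Eef1a2 past 8-fold and Meg3 by less than that. Within tumour 4 Meg3 was at 432 CPM in the cells that reached the limit without Opalin, against 833 CPM in the Opalin-dependent cells.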

How the data were processed

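For each tumour the table deposited by the authors holds raw UMI counts of 27999 entries in every barcode, and these counts were the only values used; the normalised tables were not used here. The submitters' processing notes name STAR 2.5.1, Cell Ranger 1.3.0 and mm10, and the sources used here do not say how barcodes were called as cells. Members and gene lists were chosen with earlier results of these data known. No doublet caller was run; an alternative left out cells above the 95th percentile of UMIs in their tumour.

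Counts were summed per tumour and cell set and tested with edgeR 4.0.16 (TMM, filterByExpr, quasi-likelihood test) or, as an alternative, DESeq2 1.42.0, both under R 4.3.3. The tumour was a block because both sums of a tumour come from the same animal and library. Standard errors are the log2 fold change over the root of the F statistic. Intervals are exact (binomial for shares, Poisson for CPM, 95%) and cover counting error only. Per-tumour ratios used a pseudocount of 1 CPM.

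Genes named were, among those past the test with 1 sign in all tumours and at least 50 CPM in the mean of either set, the 12 largest changes each way outside gene models (12 higher and 6 lower qualified), and list genes. Some of these genes are not reported here. Between tumours 2 and 4, genes over 100 CPM were ranked by ratio. On simulated counts of 12399 genes, 88 of 97 genes changed by 2 on the log2 scale were recovered. Of 97 changed by 1, 28 were recovered, and there were 2 false calls. The simulated counts had a fixed dispersion, an equal change in every tumour and changed genes above a minimum mean count. They thus do not give the power of the test on these data. Median depth was 8226 to 12335 UMIs in marker-positive cells. Gene positions are GENCODE's, matched by identifier.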

Additional observations from a re-analysis of the deposited data

Results flagged for a closer look

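Some of the myeloid cells held both signals: 56 cells of tumour 2 and 5 cells of tumour 4 reached the limit of the 6 oligodendrocyte markers and also that of the 6 myeloid genes, against 0 of 161 myeloid cells in tumour 1 (exact 95% interval up to 2.27%). They are not among the marker-positive or comparison cells, but they are part of the myeloid cells whose values are given as background, and the Opalin, cycling and WPRE shares are also given without them. They are 10.3% (exact 95% interval 7.90% to 13.2%) of the myeloid cells of tumour 2 and 5.68% (1.87% to 12.8%) of those of tumour 4.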

How the results depend on the processing

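Genes called by edgeR between marker-positive and comparison cells, total with higher and lower in marker-positive cells, numbered 155 (137 and 18). They numbered 1148 (660 and 488) with no filter on low counts, 520 (386 and 134) with DESeq2, 1946 (897 and 1049) at a limit of 20, 43 (43 and 0) with the myeloid limit at 5, 74 (73 and 1) with the cell filters tightened to 1000 genes and 10% mitochondrial UMIs, and 2272 (1063 and 1209) with the 5 markers other than Opalin, chosen after seeing the data. Lower calls numbered 56 at 2000 UMIs per cell and 5 without cycling comparison cells. Without the tumour block the paired fit became 0 (0 and 0). Leaving out each tumour gave 0 to 1122 in all, 0 to 683 higher and 0 to 439 lower. The cause of these shifts was not tested. Of the 155 genes, 147 were called with the 5 markers and 43 with the myeloid limit at 5. Under the alternatives, 36 called genes of this text kept their direction in 494 of 498 values. Among these 36, Tpx2 (0.79), Ccnb2 (0.79), Smc2 (0.53) and Cenpm (0.072) reversed without cycling comparison cells. That setting kept the cycling marker-positive cells, so it favours such a shift. Of all 155 calls, 154 were tested in that setting and 146 kept their direction. The mean share of cells with cycling UMIs in marker-positive cells was 19.2% at 2 UMIs and 51.5% without thinning, and in comparison cells 62.5% without thinning. The share of marker-positive cells at a limit of 5 was 6.78%, 46.5% and 36.2% in tumours 1, 2 and 4, with the 5 markers 0.149%, 33.1% and 2.13%, and with the myeloid limit at 5 it was 13.0% in tumour 2. With the rule applied at 2000 UMIs per cell it was 6.87%, 33.85% and 23.3% in tumours 1, 2 and 4. The 32 cells of tumour 1 limit every value there.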
